A study of Mus musculus with 4 samples.

Results

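Molecular chaperones of the endoplasmic reticulum (ER), the cytosol and the mitochondria were followed in cultures started from T cells. The cells came from WT mice and from mice bred to lack the kinases MEK1 and MEK2 in T cells (Mek1/2-tKO). The 39 genes were taken from a fixed list of names, all 39 were found among the 54752 genes listed in the deposited counts, and all 39 were among the 14330 genes with enough counts to be tested. They fall into 5 classes: 15 genes of protein folding in the ER, 7 of ER-associated degradation (ERAD), 7 of the cytosolic HSP90, HSP70 and HSP40 families, 3 of the mitochondria and 7 subunits of the cytosolic chaperonin CCT. WT and Mek1/2-tKO spleens gave naïve CD4+ T cells, which were driven in vitro toward T follicular helper (Tfh) cells, the CD4+ subset that helps B cells, and viable cells were sorted again on day 3 for RNA sequencing, with 2 libraries per genotype. Both genotypes were on a C57BL/6 background, and both received plate-bound anti-CD3, anti-CD28, IL-6 and blocking antibodies to TGF-β, IL-4, IFN-γ and IL-2. Mek1/2-tKO mice carried floxed alleles of both kinase genes (Map2k1 fl/fl Map2k2 fl/fl) and Cd4-Cre, a Cre transgene active from T-cell development in the thymus onward and in CD8+ as well as CD4+ T cells, and their WT littermates served as controls. Whether the WT mice carried Cre, how many mice stood behind a library and how old they were is not given in the sources used here, so the p-values measure the spread between these libraries, which may be technical.

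Chaperones bind unfolded proteins and let them reach their folded form. In the ER, lectin chaperones hold sugar-bearing proteins, the HSP70 family member BiP binds exposed hydrophobic stretches and protein disulfide isomerases form disulfide bonds, while proteins that fail are drawn back to the cytosol and degraded. When the load exceeds this capacity, the sensors IRE1, PERK and ATF6 start the unfolded protein response, which raises the transcription of ER chaperones, and cells that secrete much protein, plasma cells above all, depend on it. In the cytosol the transcription factor HSF1 drives the heat shock proteins, and HSP90 keeps kinases and receptors, several of T-cell signaling among them, in a form that can be activated. CCT is a double ring that folds actin and tubulin.

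Promoters of some of the ER genes carry a well known link between the ER and the nucleus. They are shown here because 3 of the 9 genes that have it rose in Mek1/2-tKO cells, while the other 6 were not called. The ER stress response element (ERSE, letters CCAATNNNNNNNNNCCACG, searched on both strands) pairs a CCAAT box, read by the factor NF-Y, with a CCACG box that ATF6 and XBP1 bind. Promoters of 31 of the 39 genes were found in the RefSeq table of GRCm38.p6 (250 bases before to 50 bases after a start site). ERSE was present in 9 of the 31 (29%) against 37 of all 27025 genes with a promoter in the table (0.137%), and the 9 were all ER genes, 7 of folding and 2 of ERAD. The matches are printed on the strand of each gene with 5 bases on either side, and the capitals mark the CCAAT and CCACG boxes, which read ATTGG and CGTGG where the element lies in the other orientation.
Derl3, chr10:75893237-75893265, plus strand: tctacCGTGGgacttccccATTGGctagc
Creld2, chr15:88819515-88819543, plus strand: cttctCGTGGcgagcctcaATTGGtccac
Syvn1, chr19:6046527-6046555, plus strand: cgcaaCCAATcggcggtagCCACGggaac
Hspa5, chr2:34772020-34772048, plus strand: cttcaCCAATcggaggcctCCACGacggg
Calr, chr8:84847070-84847098, minus strand: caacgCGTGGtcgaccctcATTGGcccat
Canx, chr11:50325795-50325823, minus strand: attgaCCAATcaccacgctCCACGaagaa
Pdia6, chr12:17266486-17266514, plus strand: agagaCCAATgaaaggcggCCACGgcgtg
Dnajc3, chr14:118937822-118937850, plus strand: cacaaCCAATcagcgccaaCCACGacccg
Hsp90b1, chr10:86705633-86705661, minus strand: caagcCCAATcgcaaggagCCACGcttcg
Hsp90b1, chr10:86705528-86705556, minus strand: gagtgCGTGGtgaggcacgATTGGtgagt
A second form, ERSE-II (ATTGGNCCACG, both strands), was present in Herpud1 and Dnajb11 (6.45% of the 31) and in 12 of all genes (0.0444%), and none of these genes held both forms. The Dnajb11 match lies after its start site.
Herpud1, chr8:94386372-94386392, plus strand: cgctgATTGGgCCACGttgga
Dnajb11, chr16:22857847-22857867, plus strand: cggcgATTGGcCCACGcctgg
The first 3 lines belong to genes that rose in Mek1/2-tKO cells and the other lines to genes that were not called, as described with each gene. A match is a description of these letters and was not tested as a binding site. The list holds genes that the unfolded protein response is known to raise, so their higher ERSE shares are no result of these data. The promoters of Manf, Hyou1, Derl1, Hspa9, Hsp90ab1, Hsp90aa1, Hspa8 and Cct4 were not in the table.

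The libraries held 16330802 to 18931090 counts, and mitochondrial genes took 1.56 to 2.24% of them. Values are CPM, each library's counts scaled to a common total after TMM normalization, and where no read was counted the limit is 3 counts (at most 0.194 CPM, for counting error only). A gene was called when the adjusted p of edgeR's quasi-likelihood test was under 0.05 and the fold change at least 1.5, and "rose" and "fell" are used for called genes. Of the targeted genes, Map2k1 had 185 ± 4.01 CPM in WT cells and 102 ± 5.01 CPM without the kinases (mean ± SD of 2 libraries), with -0.86 as the log2 fold change, and Map2k2 had 0.15 and was not called. A count over the whole gene does not separate a transcript without the floxed exons from an intact one. Markers of other cells differed between the genotypes: 12 of 12 B-lineage genes rose, with a summed level of 1267 to 1288 CPM in WT and 6928 to 6977 CPM in Mek1/2-tKO libraries, as did 4 of 4 tested γδ T-cell genes (3.94 to 6.06 against 119 to 136 CPM), 7 of 8 NK-cell genes, with 1 lower (117 to 119.8 against 675 to 733 CPM), and 6 of 6 tested myeloid genes (4.77 to 5.29 against 23.9 to 29.0 CPM). Of 11 markers of αβ CD4+ T cells, 6 fell and 0 rose (2687 to 2703 against 1639.5 to 1786 CPM), and the mean level of Cd4 itself was 293 CPM in WT against 22.0 CPM in Mek1/2-tKO. The 5 markers not called differed in sign. Cd3g (log2 fold change 0.24) and Lck (-0.54) passed the adjusted p but not the fold threshold. Cd3d (0.20), Trbc1 (0.16) and Trbc2 (-0.03) did not pass the adjusted p. The naïve cells had been sorted before culture. In such bulk libraries, fewer cells of a type and less RNA per cell cannot be told apart, and the part of these markers in the results on chaperones was not tested.

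Across all genes, 2768 (19.3%) were called higher and 2355 (16.4%) lower in Mek1/2-tKO cells, 35.8% in either direction. Of the chaperones, 7 of 39 (17.9%) rose and 2 (5.13%) fell, while 30 were not called. With the adjusted p alone, 13 were higher and 13 lower (33.3% each, against 27.8% and 27.2% of all genes), so that most chaperones that differed did so by less than 1.5-fold. The 2 libraries of each genotype did not overlap for 35 of the 39 genes, 16 of them higher and 19 lower in Mek1/2-tKO, where 39.5% of all genes separated upward and 38.8% downward (78.3% in all). The median log2 fold change of the chaperones was -0.05 and that of all genes 0.02. Within this list, the genes of the ER and those outside it stood on different sides of these medians. The 22 ER genes had a median of 0.25, with 6 that rose and 0 that fell, and the 17 genes outside the ER had a median of -0.15, with 1 that rose and 2 that fell. Lists of other pathway genes, described below, did not divide in this way. Their medians were 0.06 for other ER folding genes and -0.10 for the unfolded protein response. Outside the ER they were 0.11 for heat shock factors and cochaperones and 0.28 for prefoldin, CCT partners and mitochondrial folding. Summed over all 39 genes, the level was 22567 and 22605 CPM in WT and 19806 and 19760.4 CPM in Mek1/2-tKO, 12.4% lower.

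**Figure D1:**
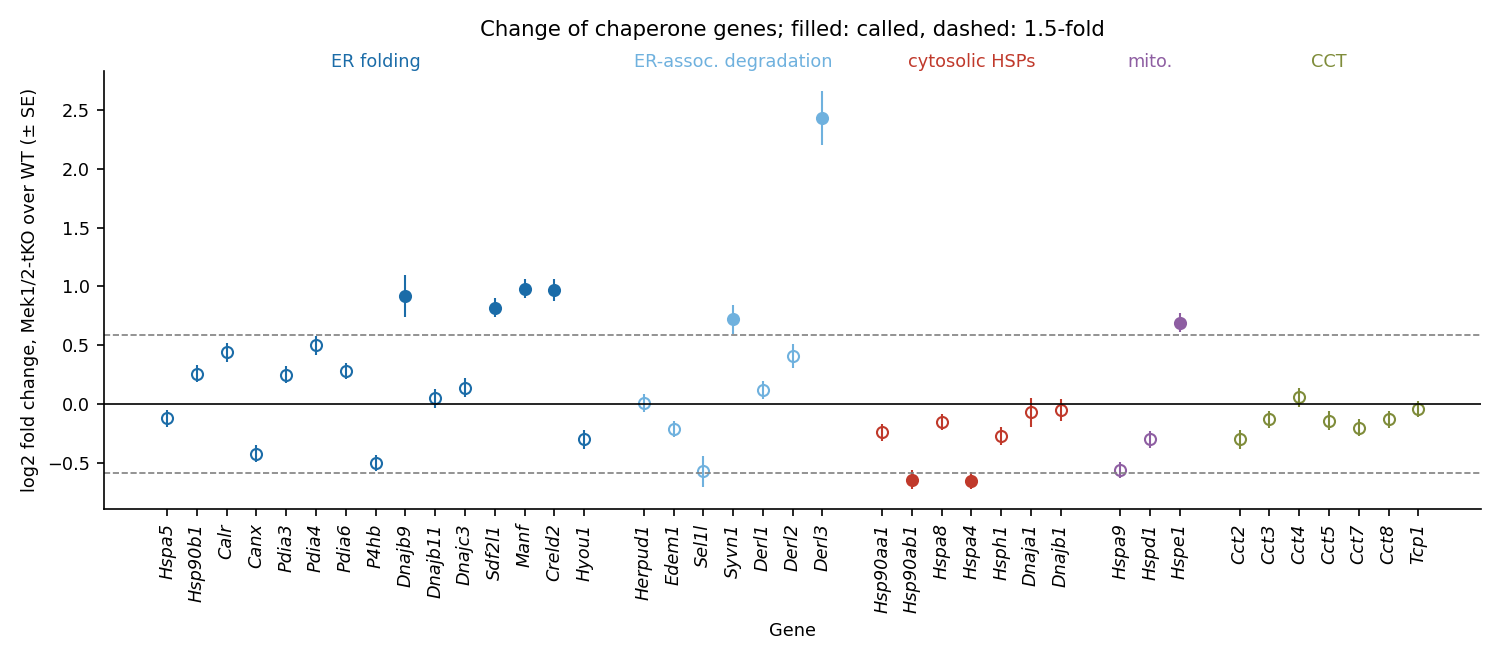
The log2 fold change (Mek1/2-tKO over WT) of each of the 39 chaperone genes with its standard error, ordered by class; filled points were called and dashed lines mark a 1.5-fold change. Derl3 stands apart at 2.43, the other ER genes lie between -0.57 and 0.98, and all 7 cytosolic genes lie below 0.

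**Figure D2:**
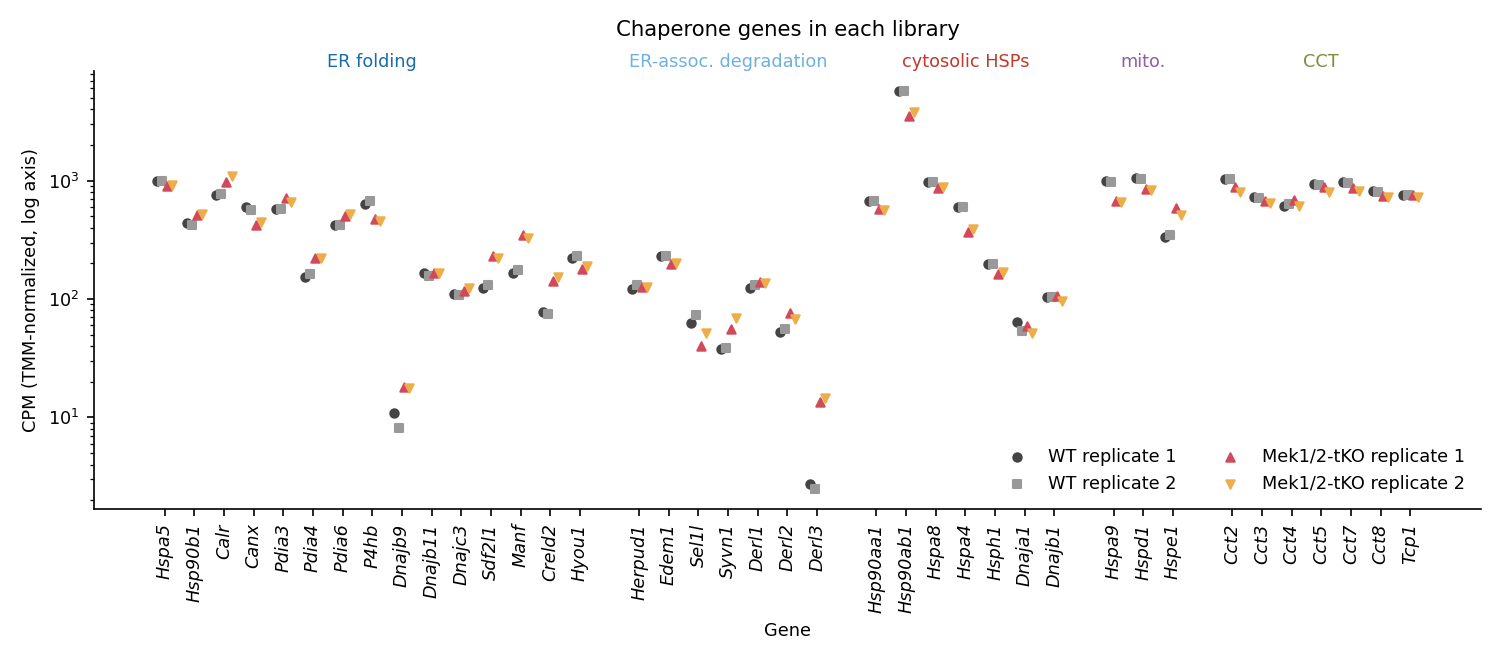
Level of each chaperone gene (CPM after TMM scaling, log axis) in the 4 libraries, with WT in grey and Mek1/2-tKO in colour. The libraries of a genotype lie close together for most genes, and levels should be read within a gene, since CPM is not divided by length.

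In the ER folding class, 4 of 15 genes rose and 0 fell, against 19.3% and 16.4% of all genes. With the adjusted p alone, 9 were higher and 3 lower, against 27.8% and 27.2% of all genes. The 4 that rose were not the most abundant ones. Manf (ENSMUSG00000032575.16, chromosome 9, 106838312 to 106891979 in GRCm38, as are all gene coordinates here), a secreted protein and BiP partner, had 165 and 175 CPM in WT and 346 and 325 CPM in Mek1/2-tKO libraries. The genotypes were well apart, with a log2 fold change of 0.98 (SE 0.08, adjusted p = 1.95e-07 in edgeR's quasi-likelihood test), or 1.97-fold. Creld2 (ENSMUSG00000023272.4, chromosome 15, 88819646 to 88826683), an ER protein with an ERSE in its promoter, went from 77.4 and 74.3 CPM to 143 and 154 CPM. This was 1.96-fold (log2 fold change 0.97, SE 0.09, adjusted p = 6.92e-07 in the same edgeR test), without overlap. Sdf2l1 (ENSMUSG00000022769.9, chromosome 16, 17130138 to 17132383), which works with BiP and the ER HSP40 proteins against aggregation, had 125 and 131 CPM in WT and 232 and 220.5 CPM in Mek1/2-tKO (log2 fold change 0.82, SE 0.08, adjusted p = 1.26e-06 in the edgeR test). Dnajb9 (ENSMUSG00000014905.4, chromosome 12, 44205559 to 44210326), an ER HSP40 protein that restrains the sensor IRE1, was the lowest of the class in CPM per kb of exon (3.72 in WT), with 10.8 and 8.20 CPM in WT and 18.0 and 17.8 CPM in Mek1/2-tKO. Its counts were 158 to 334 per library, and its log2 fold change of 0.92 had the widest error of the class (SE 0.18, adjusted p = 7.36e-04 in the edgeR test).

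Hspa5, which encodes BiP and is the usual readout of ER load, was not called. It had 992 and 986 CPM in WT and 907 and 912 CPM in Mek1/2-tKO libraries, a log2 fold change of -0.12 (SE 0.07, adjusted p = 0.171 in edgeR's quasi-likelihood test). The libraries separated, downward, by a margin that did not pass the test. With the length trends described below taken out, Hspa5 had log2 fold changes of -0.02 and 0.10. With scaling by library size alone it had -0.21, which passed the adjusted p (0.0215 in the edgeR test) but not the fold threshold. Hsp90b1 (GRP94), the HSP90 protein of the ER, had 442 and 423 CPM in WT and 515 and 519 CPM in Mek1/2-tKO, a log2 fold change of 0.26 that passed the adjusted p (0.00814 in the edgeR test) but not the fold threshold. Hyou1 (GRP170), an exchange factor for BiP, had a log2 fold change of -0.30 (adjusted p = 0.00438 in the edgeR test), which went to 0.01 and 0.02 with the length trends described below taken out. The J-domain partners of BiP Dnajb11 and Dnajc3 had 0.05 and 0.14. Across BiP and the partners named here, the log2 fold changes ran from -0.30 (Hyou1) to 0.98 (Manf).

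The lectin chaperones, which hold glycoproteins during folding, had fold changes of opposite sign. Calr, the soluble calreticulin, had 753 and 773 CPM in WT and 973 and 1094 CPM in Mek1/2-tKO libraries (log2 fold change 0.44, adjusted p = 3.75e-04 in edgeR's quasi-likelihood test). Canx, its membrane-bound relative calnexin, had 594 and 567 CPM in WT and 423 and 445 CPM in Mek1/2-tKO (log2 fold change -0.42, adjusted p = 2.93e-04 in the same test). Both stayed short of 1.5-fold, and neither gene's libraries overlapped. Of the disulfide isomerases, Pdia3, the partner of both lectins, had a log2 fold change of 0.25, Pdia4 had 0.50 and Pdia6 had 0.28, each with an adjusted p under 0.05 and under 1.5-fold. P4hb, which encodes protein disulfide isomerase itself and also a subunit of prolyl 4-hydroxylase, had 636 and 676 CPM in WT and 473 and 455 CPM in Mek1/2-tKO (log2 fold change -0.50, SE 0.07). Pdia4 and P4hb were the folding genes nearest to the threshold, whose log2 value is 0.58, without reaching it. The summed level of the 15 folding genes was 5451 and 5468 CPM in WT and 5925 and 6029 CPM in Mek1/2-tKO.

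Among the 7 ERAD genes, 2 rose and 0 fell (against 19.3% and 16.4% of all genes), and the widest difference of all 39 genes was here. Derl3 (ENSMUSG00000009092.5, chromosome 10, 75893413 to 75895941), the derlin that is known from secretory cells, had 2.72 and 2.49 CPM in WT and 13.5 and 14.6 CPM in Mek1/2-tKO, from 53, 48, 209 and 275 counts. The difference was 5.39-fold, with a log2 fold change of 2.43 (SE 0.23, adjusted p = 1.03e-06 in edgeR's quasi-likelihood test). Even so, Derl3 was the lowest of the 39 genes per kb of exon in WT cells (1.31 CPM per kb), and in Mek1/2-tKO cells its 7.06 CPM per kb lay below the 41.4 CPM per kb of Derl1. Its paralogs Derl1 and Derl2, which form part of the channel through which proteins leave the ER, had log2 fold changes of 0.12 and 0.41 and were not called, the latter with an adjusted p of 0.00392 in the edgeR test. The 250 bases before the RefSeq start of Derl3 (chr10:75893148-75893397, plus strand, GRCm38.p6, no annotated exon) are printed because it changed most, with the ERSE boxes in capitals.
Derl3 upstream: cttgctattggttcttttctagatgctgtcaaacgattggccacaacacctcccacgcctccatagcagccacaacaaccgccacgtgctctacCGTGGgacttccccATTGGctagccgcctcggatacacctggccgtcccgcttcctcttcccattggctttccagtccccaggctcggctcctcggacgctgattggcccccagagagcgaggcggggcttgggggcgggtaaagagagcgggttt

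Syvn1 (ENSMUSG00000024807.17, chromosome 19, 6046576 to 6053712) encodes HRD1, the ubiquitin ligase of ERAD, and Sel1l its membrane partner, and the log2 fold changes of the 2 genes had opposite signs. Syvn1 had 37.5 and 38.5 CPM in WT and 56.1 and 68.6 CPM in Mek1/2-tKO (log2 fold change 0.72, SE 0.12, adjusted p = 1.58e-04 in edgeR's quasi-likelihood test). Without Mek1/2-tKO replicate 2, the higher of its libraries, the log2 fold change was 0.56 and short of the fold threshold. Sel1l had 62.8 and 73.0 CPM in WT and 40.4 and 51.2 CPM in Mek1/2-tKO, a log2 fold change of -0.57 (SE 0.13, adjusted p = 0.00170 in the edgeR test) just short of the threshold. It was called lower without WT replicate 1 (-0.67) and without Mek1/2-tKO replicate 2 (-0.76), but had only -0.21 and -0.09 with the length trends described below taken out. Herpud1, which gathers the ligase complex, had 121 and 130.4 CPM in WT against 126 in each Mek1/2-tKO library, so that the genotypes overlapped. Edem1, which marks glycoproteins for disposal, had a log2 fold change of -0.21, which turned to 0.06 and 0.23 with the length trends taken out. The summed level of the ERAD genes was 629.5 and 665 CPM in WT and 649.9 and 667 CPM in Mek1/2-tKO.

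Genes with an ERSE did not form a single block. Of the 9, Derl3, Creld2 and Syvn1 rose, 0 fell and 6 were not called, where 19.3% of all genes rose and 16.4% fell. The log2 fold changes of the 9 ran from -0.42 (Canx) to 2.43 with a median of 0.28. The 10 other ER genes with a promoter in the table included 2 that rose (Sdf2l1 and Dnajb9) and 0 that fell, with a median of 0.15 and a range of -0.57 to 0.92. Herpud1 and Dnajb11, with the second form, had 0.01 and 0.05.

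The plasma-cell markers, a list that includes Derl3, were mostly higher in Mek1/2-tKO. The B-lineage, γδ T-cell, NK-cell and myeloid lists were mostly higher as well. Of 11 listed, 6 of the 10 tested rose, with a summed level of 592 and 607 CPM in WT and 2619.6 and 2758 CPM in Mek1/2-tKO libraries. The immunoglobulin gene Igkc took 293 and 296 CPM of this in WT and 1861 and 1959.6 CPM in Mek1/2-tKO. Igkc (log2 fold change 2.70), Mzb1 (2.35), Tnfrsf13b (1.21), Jchain (4.54), Derl3 and Fkbp11 (1.23) rose. Txndc5 (0.54) and Slamf7 (0.47) passed the adjusted p but not the fold threshold, Sdc1 (-0.13) and Prdm1 (0.66) did not pass the adjusted p, and Tnfrsf17 had 2 counts in Mek1/2-tKO replicate 1 and 0 in the other libraries. The part of plasma-cell and B-lineage transcripts in the levels of Derl3, Manf, Creld2, Sdf2l1, Dnajb9 and Syvn1 was not tested.

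Outside the ER, all 7 listed cytosolic heat shock genes had log2 fold changes below 0, with a median of -0.24. Of them, 2 fell and 0 rose (against 16.4% and 19.3% of all genes). By the adjusted p alone, 4 were lower (27.2% of all genes) and 3 did not pass. Of heat shock factors and cochaperones outside the list, 3 rose and 2 fell, as described below. With fold changes corrected for gene length, described below, those of the listed genes Hsph1, Dnaja1 and Dnajb1 turned above 0 in at least 1 setting. The summed level of the 7 listed genes was 8285 and 8313 CPM in WT and 5654 and 5951 CPM in Mek1/2-tKO, 30.1% lower. Most of the difference in this sum lay in Hsp90ab1 (ENSMUSG00000023944.14, chromosome 17, 45567775 to 45573271), the constitutive HSP90β and the most abundant of the 39 genes per kb of exon (1899.7 CPM per kb in WT and 1220.2 CPM per kb in Mek1/2-tKO). It had 5679 and 5716 CPM in WT and 3521 and 3798 CPM in Mek1/2-tKO, 1.56-fold lower, with a log2 fold change of -0.64 (SE 0.08, adjusted p = 1.39e-05 in edgeR's quasi-likelihood test). The value is close to the threshold, and without Mek1/2-tKO replicate 1 it was -0.58 and not called. Hsp90aa1, the inducible HSP90α, had 676 and 674 CPM in WT and 577 and 569 CPM in Mek1/2-tKO (log2 fold change -0.24, adjusted p = 0.0125 in the edgeR test). Per kb of exon, Hsp90ab1 was 11.0 and 11.1 times Hsp90aa1 in WT and at most 8.75 times in Mek1/2-tKO libraries, a difference of -0.40 on the log2 scale that was not tested.

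Hspa4 (ENSMUSG00000020361.13, chromosome 11, 53259814 to 53300457), an HSP110-type exchange factor for HSP70, had 598 and 599 CPM in WT and 371 and 390.1 CPM in Mek1/2-tKO. The WT libraries were almost equal and the Mek1/2-tKO libraries well below them, with a log2 fold change of -0.65 (SE 0.07, adjusted p = 5.59e-06 in edgeR's quasi-likelihood test), or 1.57-fold lower. Hsph1, of the same family, had -0.27 (adjusted p = 0.00813 in the edgeR test). Hspa8, the constitutive HSP70 of the cytosol, had 965 and 966 CPM in WT and 858 and 877 CPM in Mek1/2-tKO and did not pass the adjusted p (0.0841 in the edgeR test). The HSP40 genes Dnaja1 and Dnajb1, which feed clients to HSP70, overlapped between the genotypes (log2 fold changes -0.07 and -0.05).

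Of the mitochondrial chaperones, the 2 parts of one folding machine had fold changes of opposite sign. Hspd1 (HSP60) forms the folding chamber and Hspe1 (HSP10, ENSMUSG00000073676.4, chromosome 1, 55088132 to 55091307) its lid. Hspd1 had 1046 and 1024 CPM in WT and 849.5 and 829 CPM in Mek1/2-tKO (log2 fold change -0.30, adjusted p = 0.00294 in edgeR's quasi-likelihood test, short of 1.5-fold). Hspe1 had 333 and 349.6 CPM in WT and 589 and 513 CPM in Mek1/2-tKO, and rose by 1.61-fold (log2 fold change 0.69, SE 0.08, adjusted p = 9.91e-06 in the edgeR test). Per kb of exon, Hspd1 stood at 1.75 and 1.63 times Hspe1 in WT and at 0.805 and 0.901 times in Mek1/2-tKO libraries, a difference of -0.99 on the log2 scale. The order of the pair depends on the length used: with principal transcripts, the ratio was 1.00 and 0.936 in WT and 0.461 and 0.516 in Mek1/2-tKO libraries. The log2 difference was the same, and it was not tested. With the length trends described below taken out, Hspe1 had log2 fold changes of 0.41 and 0.02 and was not called. The 2 genes lie head to head on chromosome 1, and annotated exons of each cover part of the other on the opposite strand (4.24% of the exon bases of Hspd1 and 7.6% of those of Hspe1 are shared). RefSeq gives Hspd1 a start at 55088243 and a second one at 55087932 on the minus strand, and Hspe1 a start at 55088148 on the plus strand. A run of heat shock units, the GAA and TTC triplets that HSF1 reads, lies upstream of Hspe1 and of the second Hspd1 start, and inside Hspd1 as counted from its first start. It is printed on the plus strand with the units in capitals, because a single stretch lies in windows of 2 genes whose fold changes had opposite signs.
Hspe1 and Hspd1, chr1:55088054-55088081, plus strand: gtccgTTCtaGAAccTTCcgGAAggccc
Its near end lies 72 bases before the start of Hspe1 and 127 bases before the second start of Hspd1. The 3-unit element searched (GAANNTTCNNGAA, both strands) was present in Hspd1, Hspe1 and Hsph1 of the 31 promoters (9.68%) and in 179 of all genes (0.662%). The list holds heat shock genes, so this share too is no result of these data. The Hsph1 match lies after its start sites, in the part of the window that is transcribed. Hspa9 (mortalin), the HSP70 protein of the mitochondrial matrix, had 987 and 970.4 CPM in WT and 671 and 657 CPM in Mek1/2-tKO, and with a log2 fold change of -0.56 (adjusted p = 2.10e-05 in the edgeR test) it was just short of the threshold.

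**Figure D3:**
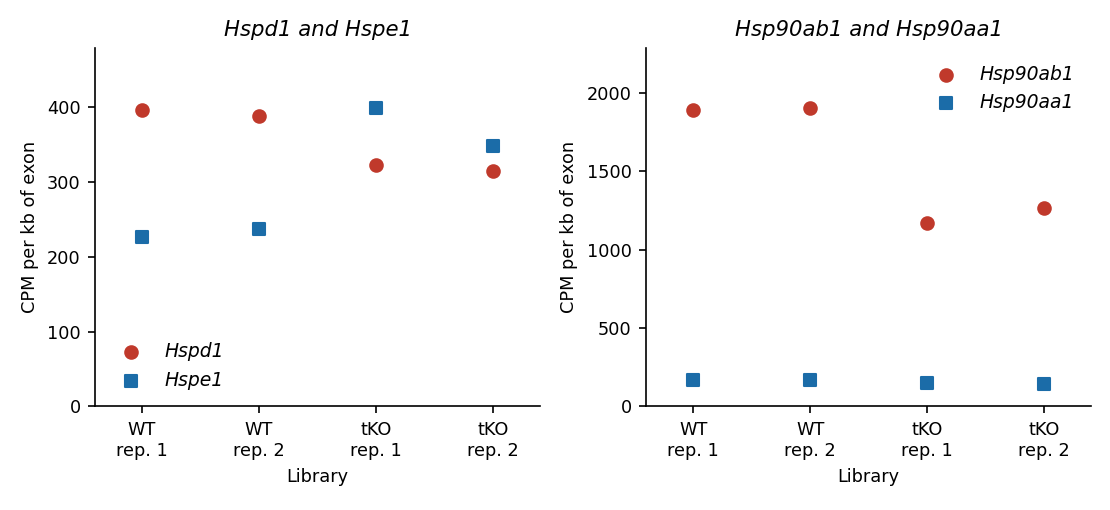
Levels in CPM per kb of exon in the 4 libraries (tKO stands for Mek1/2-tKO) for Hspd1 with Hspe1 and for Hsp90ab1 with Hsp90aa1, each axis starting at 0. Hspd1 lies above Hspe1 in both WT libraries and below it in both Mek1/2-tKO libraries, an order that depends on joining all exons, while Hsp90ab1 stays far above Hsp90aa1 in all 4.

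The CCT subunits were the most even class. None of the 7 was called, where 35.8% of all genes were called in either direction. The log2 fold changes lay between -0.30 (Cct2) and 0.06 (Cct4) with a median of -0.13. Cct2 (1026 and 1029.8 CPM in WT against 879 and 795 CPM in Mek1/2-tKO) and Cct7 had an adjusted p under 0.05 (0.00504 and 0.0308 in edgeR's quasi-likelihood test). Both were lower, as were 27.2% of all genes by the adjusted p alone. Cct3, Cct5, Cct8 and Tcp1 had values from -0.14 to -0.04, and of the 7 genes Cct4 alone overlapped between the genotypes, with 615 and 633 CPM in WT and 681 and 615 CPM in Mek1/2-tKO. Most genes did not overlap (78.3% of all genes), so this is no trait of CCT. The eighth subunit, Cct6a, which was not in the list, had -0.20 (adjusted p = 0.0418 in the edgeR test). The summed level of the 7 was 5835 and 5816 CPM in WT and 5468 and 5115 CPM in Mek1/2-tKO, 9.17% lower.

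Fold changes in these libraries moved with gene length, and this bears on several chaperones. The median log2 fold change of all genes was 0.47 among the shortest genes (exon length up to 1882 bases) and -0.36 among the longest (6032 bases or more), with 0.14 and -0.14 in the bins of equal size between them. With this trend taken out, Sdf2l1 (exon length 1108 bases) had 0.50, Hspe1 (1474 bases) had 0.41 and Hspa4 (5528 bases) had -0.42, and none of them reached 1.5-fold. P4hb (-0.59), Hspa9 (-0.62) and Derl2 (0.75) then did. The deposited length joins the exons of all transcripts of a gene. When the trend on the length of the principal transcript was taken out instead, Sdf2l1 had 0.38, Hspe1 had 0.02 and Hspa4 had -0.31, and Derl2 had 0.64, while P4hb (-0.43) and Hspa9 (-0.44) were again short of 1.5-fold. The adjusted p was not computed again in these settings, so a call there rests on the corrected fold change and the uncorrected adjusted p. By that rule the other called genes kept their calls in both settings: Derl3 had 2.19 and 2.08, Manf 0.98 and 0.91, Creld2 0.68 and 0.64, Dnajb9 0.77 and 0.89, Syvn1 0.88 and 0.91 and Hsp90ab1 -0.71 and -0.65. The median of the CCT subunits was 0.09 in the first setting and -0.23 in the second, so their direction depends on it. The median of the cytosolic class went from -0.24 to -0.09 and -0.07, and that of the ER genes from 0.25 to 0.32 and 0.31. Canx had -0.27 and -0.12 in place of -0.42. Values of the other pathway genes below are given without such a correction.

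**Figure D4:**
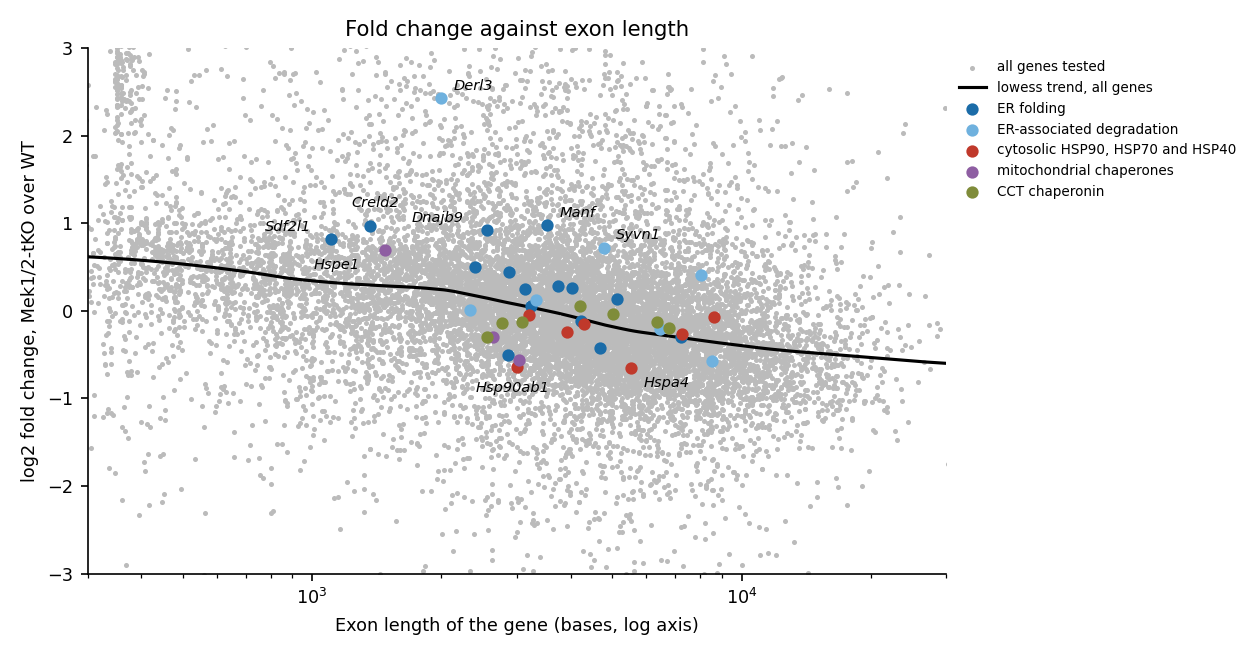
The log2 fold change (Mek1/2-tKO over WT) of all tested genes in grey and of the chaperones in colour against exon length (bases, log axis), with the lowess trend of all genes as a line; genes beyond the axes are not drawn. The trend falls from short to long genes, Hspe1 and Sdf2l1 lie among the shortest chaperones, and Derl3 and Hsp90ab1 lie farther from the line.

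The regulators of these genes were read from lists of other pathway members. The counts of these lists stand beside the 19.3% of all genes that rose and the 16.4% that fell. Of 17 sensors and factors of the unfolded protein response, 1 rose and 4 fell, with a median log2 fold change of -0.10. The sensor gene Eif2ak3 (PERK) rose, from 20.2 and 20.5 CPM to 31.1 and 32.9 CPM (log2 fold change 0.66, adjusted p = 6.25e-04 in edgeR's quasi-likelihood test). The sensor genes Ern1 (IRE1, 3.51 to 6.33 CPM over all libraries) and Atf6 overlapped between the genotypes (0.04 and -0.09). Xbp1, the factor that IRE1 activates by splicing, had 188 and 209 CPM in WT and 271 and 241 CPM in Mek1/2-tKO (0.37, adjusted p = 0.00225 in the edgeR test), short of 1.5-fold, and counts per gene do not show its splicing. On the PERK side Atf4 had -0.15 and Ddit3 (CHOP) 0.31, neither of which passed the adjusted p. Trib3, a target of both, fell from 49.6 and 57.6 CPM to 8.78 and 7.30 CPM (-2.74, SE 0.15), Creb3l2 fell with -1.19 and Ppp1r15b, which helps translation recover, with -0.75.

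Of 30 other genes of ER folding and quality control, 8 rose and 3 fell, with a median of 0.06. The 2 ER oxidases that recharge the disulfide isomerases moved in opposite directions. Ero1a fell from 213 and 198 CPM to 72.0 and 67.1 CPM (log2 fold change -1.56, SE 0.09, adjusted p = 5.95e-09 in edgeR's quasi-likelihood test), and Ero1b rose from 22.0 and 20.1 CPM to 82.5 and 83.0 CPM (1.97, SE 0.11, adjusted p = 5.49e-09 in the same test). Per kb of exon, Ero1a was 12.2 and 12.4 times Ero1b in WT and 1.10 and 1.02 times in Mek1/2-tKO libraries (9.30 and 9.45 against 0.838 and 0.776 times with principal transcripts). Mzb1, a BiP-associated protein of B cells and plasma cells, rose with 2.35 and the prolyl isomerase Fkbp11 with 1.23, and both stand on the plasma-cell list as well. P4ha1, the catalytic partner of P4hb in prolyl 4-hydroxylase, fell from 87.3 and 83.0 CPM to 27.5 and 34.2 CPM (-1.46), and Uggt1, which returns misfolded glycoproteins to the lectins, fell with -0.81.

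Of 30 tested heat shock factors and cochaperones (32 listed), 3 rose and 2 fell, with a median of 0.11. Hsf1 had 63.1 and 64.5 CPM in WT and 57.2 and 61.2 CPM in Mek1/2-tKO (-0.11) and Hsf2 had 0.22, and neither passed the adjusted p. The cochaperone Dnajc7 rose with 0.83, the stress-induced HSP70 gene Hspa1b with 0.80 from 3.32 to 4.46 CPM in WT, and Dnajb4 with 0.69. Hspa1b has a near-identical neighbour, Hspa1a, and reads shared by the pair make its count uncertain. Hspa4l, of the family of Hspa4, fell with -0.88 and the HSP70 exchange factor Bag3 with -0.83. Of 19 genes of prefoldin, CCT partners and mitochondrial folding, 2 rose and 4 fell, with a median of 0.28. Pfdn5, a subunit of the prefoldin that hands actin and tubulin to CCT, rose from 79.9 and 80.0 CPM to 198 and 159 CPM (1.16), and Hscb, an iron-sulfur HSP40 protein of the mitochondria, rose with 1.04. The mitochondrial protease Lonp1 fell from 343 and 350.2 CPM to 156 and 164 CPM (-1.12), and Clpb and Dnaja3, both of the mitochondria, fell with -0.76 and -0.64.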

How the data were processed

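RNA of Tfh-polarized CD4+ T cells was sequenced from a stranded mRNA kit in read pairs. The authors trimmed reads with Trimmomatic 0.36, mapped them to GRCm38 and counted those with a unique position on each gene (featureCounts, Subread 1.5.1) (per the labels and the study's methods). The deposited values are raw counts per gene without normalization, and the strand setting of the counting is not given in the sources used here. Exons shared with other genes are therefore uncertain, chiefly in Tcp1 (14.2% of exon bases on the other strand), Hsp90b1 (10.3%), Dnaja1 (9.93%) and Manf (8.85%).

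Counts of all 54752 genes were read (symbols for 54723, from a reference table of gene names), filtered with filterByExpr and scaled by TMM, and the 2 WT libraries were compared with the 2 Mek1/2-tKO libraries by edgeR's quasi-likelihood test (edgeR 4.0.16, R 4.3.3) with Benjamini-Hochberg adjustment over 14330 genes. The common dispersion was 0.00842, and replicates of a genotype differed by more than sampling noise. An exact two-sided permutation test of these 4 libraries cannot go below p = 0.333. On simulated counts of this comparison with 200 genes changed by 2-fold, edgeR recovered 93% of them at the calling thresholds. It called 2 unchanged genes of 14079 tested. The simulation gave every gene the common dispersion, and its changed genes were few and drawn from those above a count minimum. It therefore does not give the error or power of the calls made on these data. CPM per kb used the deposited exon lengths, which join all exons of a gene. Length and GC trends were lowess fits (span 0.3, statsmodels 0.14.6) on the log2 fold changes, and the adjusted p was kept as it was without them. Motifs were searched in RefSeq promoters of GRCm38.p6.

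All 39 chaperones are named, and of the other pathway lists the sensors and factors and up to 3 called genes in each direction with the largest fold change. Markers are given as lists, and Cd4, the other named T-cell markers and the plasma-cell markers were named after their values were seen. The genes and all lists were chosen with earlier results of these data known. Alternatives were DESeq2 1.42.0, other scalings, filters and thresholds, a replicate block, each library left out and trends taken out. The trends on GC content and on principal transcript length were added after the data were seen.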

Additional observations from a re-analysis of the deposited data

How the results depend on the processing

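Scaling by library size alone, which moved the median of all genes by -0.08, gave 5 chaperones lower (P4hb, Sel1l and Hspa9 were added) and a median log2 fold change of the chaperones of -0.14. When single libraries were left out, 6 to 7 chaperones were higher and 1 to 3 lower, and their median lay between -0.12 and -0.00. At a fold change of at least 2, 1725 genes were higher and 1040 lower, with 1 chaperone higher (Derl3) and 0 lower at the same adjusted p (without a fold threshold, 13 were higher and 13 lower, beside 3903 genes lower). The exon length trend taken out gave a chaperone median of 0.09. The principal transcript length trend taken out, which covered 11851 of the 14330 genes, gave 1840 genes higher and 1339 lower, 1 chaperone lower and a chaperone median of 0.04. Derl3 was called in all 17 alternatives. No filter, a minimum of 10 counts per library, RLE size factors, DESeq2, the likelihood-ratio test, an adjusted p under 0.01 and the GC trend taken out changed no chaperone call. Libraries with the same replicate number did not deviate together (correlation -0.0262), and with the replicate block 7 chaperones were higher and 2 lower, the same genes as without it. The 2 libraries per genotype and low counts limit Derl3 and Dnajb9 most.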
